A study of Rattus norvegicus with 6 samples.

Results

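The clustered protocadherins were taken as every row of the gene table whose symbol starts with Pcdha, Pcdhb or Pcdhg followed by a letter or digit. This gave 32 of the 32883 genes in the table: 3 alpha genes, 17 beta genes and 12 gamma genes. The 3 alpha rows carry only 2 symbols, because Pcdha4 stands on 2 rows with different gene identifiers. The family was singled out with its values in the comparison of control and treated rats already known, so every difference of a member between these groups is a description. How many members a model across all genes called is set beside the share of all genes called, and no p-value is given for a member.

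RNA was measured in the vestibular sensory epithelium of 6 male Long-Evans rats, 8 to 9 weeks old on reception. The Control group (n = 3) drank plain water. The IDPN-4wk group (n = 3) was exposed for 4 weeks to 20 mM IDPN (3,3'-iminodipropionitrile), a nitrile toxic to the vestibular hair cells (HCs), in the drinking water. The 2 utricles and 6 cristae of a rat were pooled, so a library is 1 animal and holds sensory epithelium together with the nerve endings, glia and stroma that came with it. The 6 libraries held from 13358678 to 18561991 counts, and the labels place them in 1 batch. The animal codes of the 3 IDPN-4wk rats share a prefix, 2 controls have another in common and 1 control has a different one. What this prefix stands for is not stated, and it cannot be told apart from treatment.

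Clustered protocadherins are cadherin-like adhesion proteins of the cell surface, best known from neurons. In mammals their genes lie in a row in 3 adjacent clusters. Each alpha and gamma variable exon has its own promoter and is spliced to constant exons common to its cluster, whereas a beta gene is a single exon with no common part. A neuron expresses only some of these genes, and the proteins pair between cells by like binding like, which is known for self-avoidance of the branches of 1 neuron and, for the gamma genes, for neuron survival. The choice of promoter depends on the insulator protein CTCF, on cohesin and on DNA methylation, and most variable promoters hold a conserved sequence element with CGCT at its core. Because the constant exons are common to a cluster and the beta genes resemble each other, the counts of single members are less certain than the sum over a family.

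The promoter element is shown first because it was read from sequence alone, without use of any expression value. The patterns of the beta and gamma families were picked from their own windows. How often a pattern occurs in its own family therefore follows from that choice. RefSeq promoters of the rat build GRCr8, each from 250 bases before to 50 bases after a gene start, were searched on both strands. Of the 33469 windows, 60.9% held CGCT, so those letters alone mark little. The run of 10 bases held by most beta windows was GGTGGCGCTG, which contains CGCT. It was found in 15 of 19 beta windows, in 0 of 15 gamma windows and in 74 windows (0.221%) overall. Of the 17 beta genes of the count table, 15 had a window and 14 of these windows held it. The exception was Pcdhb1, and no window was at hand for Pcdhb11 and Pcdhb22. The last base of the run lay between 36 and 219 bases before the start, with a median of 58.5 bases over 14 windows. The windows below are 30 bases of the + strand, written 5′ to 3′, with the shared 10 bases in capitals, for the beta genes with the most reads and for those with the largest and smallest fitted difference (Pcdhb12 and Pcdhb4).
Pcdhb19, chr18:29478761-29478790: tgtgaagacacatGGTGGCGCTGcaggata
Pcdhb14, chr18:29431806-29431835: aaacagaacgcttGGTGGCGCTGcaggcta
Pcdhb20, chr18:29485807-29485836: cacagagacacatGGTGGCGCTGtaggata
Pcdhb9, chr18:29379245-29379274: caaaaagacacagGGTGGCGCTGcaggcta
Pcdhb12, chr18:29413645-29413674: aataaggacgcttGGTGGCGCTGcaggcta
Pcdhb4, chr18:29292208-29292237: aataaggacgcttGGTGGCGCTGcaggcta

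The 30 bases of Pcdhb12 and Pcdhb4 are the same letter for letter. These 2 genes stand at opposite ends of the beta family in the values given further on. A link between promoter sequence and values was not tested. Pcdhb1 and the alpha gene Pcdha4 are shown for contrast, with only CGCT in capitals.
Pcdhb1, chr18:29187650-29187679: tgagcaaatatcctcaccCGCTcctcaatt
Pcdha4, chr18:28876958-28876987: tctggagccacatggtgtCGCTctttaccg

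In the gamma windows CGCT stood at the end of another run, CTCTNNGNGNCGCT, where N is any base. This pattern was written down after the gamma windows had been read. It was found in 11 of 15 gamma windows, in 0 of 19 beta windows and in 41 windows (0.123%) overall. The gamma genes of the count table had 8 windows, 6 of them with the pattern. Those of the members with the largest and smallest fitted difference (Pcdhga5 and Pcdhga9) and of Pcdhgb8 are shown with the pattern in capitals.
Pcdhga5, chr18:29770900-29770929: ggttaggaCTCTAAGCGTCGCTgttcacca
Pcdhga9, chr18:29815780-29815809: acttagggCTCTGAGCGCCGCTgttcacca
Pcdhgb8, chr18:29839493-29839522: taaatggaCTCTGGGCGCCGCTgttgtcca

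Summed over all members of a family with a row, the reads were lower in IDPN-4wk than in control for each of the 3 families. The families differed widely in how far. Genes without a row are not in these sums. RefSeq on GRCr8 places 39 clustered genes on chromosome 18, against 32 rows here. Pcdhga2, Pcdhga7, Pcdhga10, Pcdhga12 and Pcdhgc3 had no row under these symbols. Values are CPM, counts relative to the TMM-scaled library size. The beta sum was 121, 122 and 108 CPM in the control libraries and 11.3, 11.9 and 9.98 CPM in the IDPN-4wk libraries. The gamma sum was 179, 181 and 187 CPM in control and 114, 117 and 128 CPM in IDPN-4wk. The alpha sum was 35.3, 37.9 and 28.0 CPM in control and 14.5, 16.2 and 17.6 CPM in IDPN-4wk. In none of the 3 families did the groups overlap. The gap between the groups was wide beside the spread of their libraries for beta and gamma, but for alpha the control libraries spread about as far as the gap. The log2 ratio of the group means was -3.40 for beta, -1.07 for alpha and -0.61 for gamma. Beta reads were thus 10.6-fold lower, alpha reads 2.10-fold lower and gamma reads 1.52-fold lower. In raw counts the beta sum went from between 1521 and 1870 in control to between 155 and 230 in IDPN-4wk, so even the low sums rest on over 100 reads. In bulk samples, fewer cells of a type and less RNA per cell cannot be told apart from the reads of a gene alone.

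**Figure D1:**
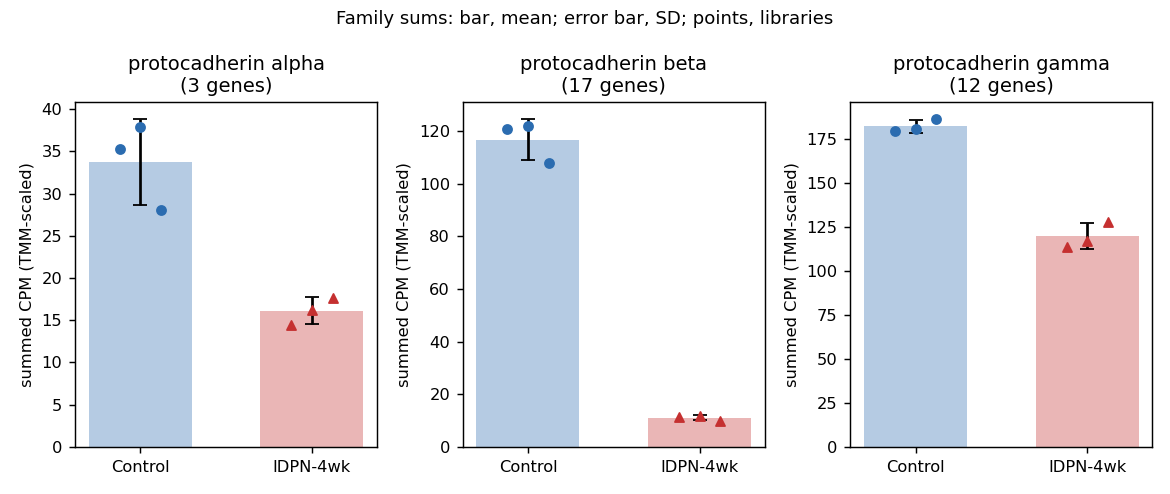
Summed CPM (TMM-scaled, linear axes from 0) of the alpha, beta and gamma genes in Control and IDPN-4wk; bars are means, error bars SD over 3 libraries and points single libraries. The beta sums are between 108 and 122 CPM in control and at most 11.9 CPM in IDPN-4wk, while the gamma sums are between 179 and 187 CPM and between 114 and 128 CPM.

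The make-up of the clustered protocadherin reads differed with the families. Beta genes took 36.0%, 35.8% and 33.4% of them in the control libraries and 8.08%, 8.17% and 6.41% in the IDPN-4wk libraries. Gamma genes took 53.5%, 53.1% and 57.9% in control and 81.6%, 80.7% and 82.3% in IDPN-4wk. The alpha share was nearly the same in both groups, from 8.70% to 11.1% in control and from 10.4% to 11.3% in IDPN-4wk. All members together came to 333 ± 9.38 CPM (SD, n = 3) in control and 147 ± 8.18 CPM (SD, n = 3) in IDPN-4wk, which is 44.1% of control. These shares are ratios within a library and do not depend on how the libraries were scaled.

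A model across all genes was used to place each member among the rest. Of the 14352 genes past a filter on low counts, 6.62% were called lower in IDPN-4wk (Padj under 0.05 and a fold change over 1.5) and 3.09% were called higher, 9.71% in either direction. In 19.3% of the tested genes all IDPN-4wk libraries lay below all control libraries, and in 18.5% all lay above. Of the 32 members, 29 passed the filter, and 22 of these were called lower and 0 higher. By family the called genes were 15 of the 15 tested beta genes, 5 of the 12 gamma genes and 2 of the 2 tested alpha genes. Of all 32 members, 27 had every IDPN-4wk library below every control library, 2 had the reverse and 3 overlapped. These counts describe a family that was chosen on this contrast, and 11 of the tested beta genes passed the filter only through their control libraries. The fitted log2-Fold change was below 0 for all 29 tested members, also with scaling to library size alone, which moved the median of all genes from 0.02 to 0.13.

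**Figure D2:**
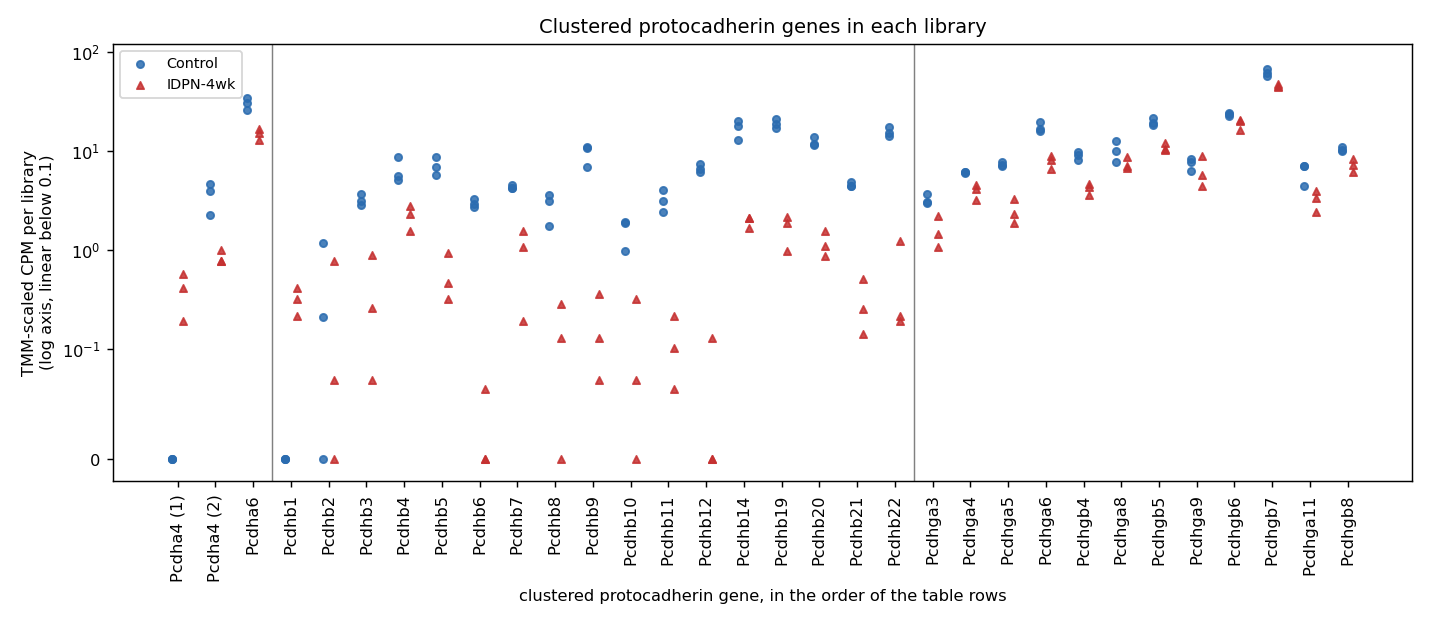
CPM of each of the 32 clustered protocadherin genes in the 3 Control (circles) and 3 IDPN-4wk libraries (triangles), on a log axis that is linear below 0.1; Pcdha4 (1) and (2) are the rows ENSRNOG00000050378 and ENSRNOG00000047174. Every beta gene from Pcdhb3 to Pcdhb22 has its treated libraries below its control libraries, and among the gamma genes Pcdhga8 and Pcdhga9 overlap.

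The beta genes encode adhesion proteins with their own short cytoplasmic tails. Pcdhb19 (ENSRNOG00000039469), the beta gene with the most reads, had 322, 269 and 240 counts in the control libraries and 30, 19 and 29 in the IDPN-4wk libraries. Its mean was 18.9 ± 1.90 CPM (SD, n = 3) in control and 1.67 ± 0.613 CPM (SD, n = 3) in IDPN-4wk, a log2-Fold change of -3.53 (SE 0.25). Every control library had more reads of Pcdhb19 than any treated library, and the groups did not come near each other.

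Pcdhb14 (ENSRNOG00000020059) had 314, 257 and 182 counts in control and 29, 41 and 26 counts in IDPN-4wk, with a log2-Fold change of -3.11 (SE 0.23). Pcdhb20 (ENSRNOG00000033123) had 182, 196 and 163 counts in control and 12, 30 and 17 counts in IDPN-4wk, with a log2-Fold change of -3.36 (SE 0.25). These 2 genes and Pcdhb19 kept between 8.84% and 11.5% of their control level, near the value of the beta sum, and each was counted in every treated library.

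Pcdhb22 (ENSRNOG00000020028) had 221, 248 and 214 counts in control and 3, 24 and 3 counts in IDPN-4wk. Its log2-Fold change was -4.69 (SE 0.44), and it went from -6.20 to -4.30 as single libraries were left out. The treated libraries were uneven here: the second IDPN-4wk library held most of the reads of its group, and without it the fitted difference was the largest of those values.

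Pcdhb9 (ENSRNOG00000020072) had 166, 99 and 156 counts in control and 1, 7 and 2 counts in IDPN-4wk, a log2-Fold change of -5.51 (SE 0.43) that became -6.44 without the second IDPN-4wk library. Pcdhb12 (ENSRNOG00000033719), with the largest difference of the family, had 114, 87 and 94 counts in control and 0, 0 and 2 counts in IDPN-4wk. Its log2-Fold change of -7.09 (SE 0.57) went from -9.70, without the third IDPN-4wk library that held its only treated reads, to -6.46. The pooled counts put it at 0.61% of control, with an exact 95% interval from 0.0735% to 2.22% that covers counting error only. Pcdhb9 and Pcdhb12 were not rare in control, where they took 8.20% and 5.75% of the beta reads; in IDPN-4wk they took 1.85% and 0.369%.

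Pcdhb4 (ENSRNOG00000027469) was at the other end of the family. It had 87, 123 and 72 counts in control and 39, 45 and 24 counts in IDPN-4wk, a log2-Fold change of -1.53 (SE 0.31). The groups did not overlap, but the treated libraries kept 34.5% of the control level. Pcdhb4 took 5.49% of the beta reads in control and 19.9% in IDPN-4wk, where its share of the reads was the largest of the beta genes. Pcdhb14 went from 14.7% to 17.7%, Pcdhb19 from 16.2% to 14.4% and Pcdhb22 from 13.3% to 5.54%.

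The other 8 tested beta genes had log2-Fold changes between -6.70 and -2.17. The pseudogene Pcdhb6 (ENSRNOG00000054953) had 42, 47 and 41 counts in control and 0, 0 and 1 counts in IDPN-4wk, which pooled is 0.692% of control (exact 95% interval 0.0174% to 3.92%). Pcdhb7 had 66, 61 and 64 counts in control and 15, 30 and 3 in IDPN-4wk, and Pcdhb3 had 57, 45 and 40 counts in control and 1, 5 and 14 in IDPN-4wk. In Pcdhb3 and Pcdhb7 the treated libraries differed among themselves, relative to their level, more than the control libraries did. The fitted values of Pcdhb5, Pcdhb8, Pcdhb10, Pcdhb11 and Pcdhb21 were between -4.60 and -3.59. Single treated libraries moved several of these values by more than 1.5-fold. Without the third IDPN-4wk library Pcdhb3 was at -4.14 and Pcdhb6 at -8.53, and without the second Pcdhb7 was at -2.80 and Pcdhb21 at -4.43. Pcdhb8 was at -5.43 without the first and at -3.73 without the second. Pcdhb10 had the fewest reads of the tested beta genes, 29, 14 and 27 counts in control and 1, 0 and 5 in IDPN-4wk, and its log2-Fold change of -3.59 (SE 0.75) went from -5.39, without the third IDPN-4wk library, to -2.93, without the second.

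Of the 2 beta genes removed by the low-count filter, Pcdhb1 was higher in IDPN-4wk and Pcdhb2 overlapped between the groups. Pcdhb1 (ENSRNOG00000020103) had 0 counts in the 3 control libraries and 3, 8 and 5 counts in the IDPN-4wk libraries, at least 4.8-fold higher against a floor of 3 counts over the control group, without counting error in the treated counts. With that error the exact lower 95% limit of the pooled counts was 347% of control. Pcdhb2 (ENSRNOG00000039476) had 0, 17 and 3 counts in control and 1, 0 and 12 counts in IDPN-4wk, so its groups overlapped. Its treated mean was at 60.3% of control, a value that rests on Control 2, which held most of the control counts. Fitted without the filter, Pcdhb1 was called higher and Pcdhb2 was not called. Pcdhb1 is the first beta gene of the cluster, and it was also the beta gene of the table whose promoter window lacked the shared 10 bases, whereas the Pcdhb2 window held them. At these counts its promoter and its values can only be set side by side.

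**Figure D3:**
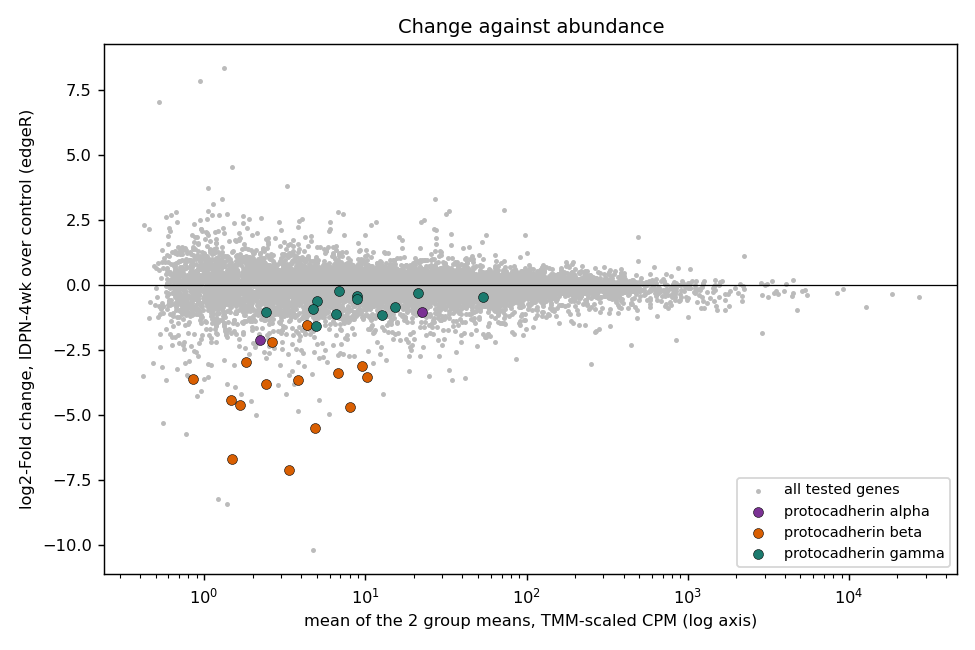
Log2-Fold change of IDPN-4wk over Control (edgeR) against the mean of the 2 group means in CPM (log axis) for the 14352 tested genes, with the alpha, beta and gamma genes in colour. Beta genes lie between -7.09 and -1.53 and gamma genes between -1.55 and -0.23; most tested beta genes passed the low-count filter only through their control libraries.

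The alpha genes share a cytoplasmic part that the beta genes lack. Pcdha6 (ENSRNOG00000020119) held 89.2% of the alpha reads in control and 92.4% in IDPN-4wk. It had 475, 486 and 364 counts in control and 179, 291 and 259 counts in IDPN-4wk, or 30.1 ± 4.13 CPM and 14.9 ± 1.91 CPM (SD, n = 3), a log2-Fold change of -1.02 (SE 0.14). The row Pcdha4 ENSRNOG00000047174 had 72, 56 and 32 counts in control and 14, 15 and 12 counts in IDPN-4wk, with a log2-Fold change of -2.09 (SE 0.38). Neither gene had overlapping groups.

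The row Pcdha4 ENSRNOG00000050378 ran the other way. It had 0 counts in the 3 control libraries and 8, 8 and 3 counts in the IDPN-4wk libraries, at least 5.7-fold higher against the same floor, and the exact lower 95% limit of the pooled counts was 420% of control. Like Pcdhb1 it was removed by the low-count filter, and without the filter it was called higher. Both rows named Pcdha4 can draw reads from the constant exons of the cluster, so the counts of either row are uncertain.

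The gamma genes share constant exons too. Those with a row carry symbols of the A and B types, and the C-type gene Pcdhgc3 has none. Pcdhgb7 (ENSRNOG00000039454) had the most reads of all members. Its counts were 882, 876 and 950 in control and 631, 850 and 731 in IDPN-4wk, or 61.8 ± 5.17 CPM and 45.4 ± 1.61 CPM (SD, n = 3), a log2-Fold change of -0.44 (SE 0.09). The groups did not overlap in CPM, although as a ratio the means were closer than in any tested beta gene.

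Pcdhgb6 (ENSRNOG00000039455) had 362, 326 and 341 counts in control and 229, 387 and 316 counts in IDPN-4wk. After scaling this was 23.4 ± 0.677 CPM and 18.9 ± 2.14 CPM (SD, n = 3), with a log2-Fold change of -0.31 (SE 0.12). The raw counts of the groups overlapped because the second IDPN-4wk library was the deepest of the 6, and the CPM values did not.

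Pcdhgb5 (ENSRNOG00000039457) had 333, 264 and 270 counts in control and 143, 236 and 161 counts in IDPN-4wk, a log2-Fold change of -0.84 (SE 0.14). Pcdhga6 (ENSRNOG00000027296) had 305, 238 and 227 counts in control and 112, 128 and 138 counts in IDPN-4wk, a log2-Fold change of -1.16 (SE 0.16). Pcdhgb8 (ENSRNOG00000027220), the last gamma gene of the table, had 160, 156 and 142 counts in control and 116, 120 and 113 counts in IDPN-4wk, a log2-Fold change of -0.53 (SE 0.17). All 3 had every treated library below every control library.

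The gamma gene with the largest difference was Pcdhga5 (ENSRNOG00000027299), with 109, 110 and 103 counts in control and 26, 45 and 51 counts in IDPN-4wk. Its log2-Fold change of -1.55 (SE 0.25) was about that of Pcdhb4, the beta gene with the smallest. The gamma gene with the smallest difference was Pcdhga9 (ENSRNOG00000030352), with 98, 110 and 117 counts in control and 61, 111 and 137 counts in IDPN-4wk. Its groups overlapped, and its log2-Fold change was -0.23 (SE 0.26). The promoter windows of Pcdhga5 and Pcdhga9, shown above, both held the gamma pattern.

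Pcdhga8 also overlapped between the groups, with a log2-Fold change of -0.43. The remaining gamma genes, Pcdhga3, Pcdhga4, Pcdhgb4 and Pcdhga11, had log2-Fold changes between -1.11 and -0.61 and no overlap. The 5 gamma genes past both thresholds were Pcdhga5, Pcdhga6, Pcdhgb4, Pcdhgb5 and Pcdhga11, of which Pcdhga11 fell short of them with 5 of the alternative settings. Summed by type, the 7 A genes went from 57.9 ± 1.51 CPM to 33.0 ± 5.14 CPM (57.0% of control) and the 5 B genes from 124 ± 5.31 CPM to 86.8 ± 2.33 CPM (69.8% of control; SD, n = 3 throughout). Every gamma value was nearer to 0 than those of the tested beta genes other than Pcdhb4.

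The differences could be followed along the chromosome. Of the members, 27 had their symbol in the GRCr8 gene table, on chromosome 18, and 25 of these with a unique symbol stood there in the same order as in the count table. The order was used to find the neighbours, with no coordinate taken across builds. Outside the clusters and between them, 23 tested genes were examined with edgeR, and 0 of them were lower and 4 higher at both thresholds, with 6 at an unadjusted p under 0.05 and a median log2-Fold change of 0.16 (from -0.35 to 1.00). DESeq2 also called 0 lower and 4 higher. No share of all tested genes at an unadjusted p under 0.05 was worked out to set beside the neighbours.

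Before the alpha cluster, Zmat2, a splicing factor gene, was at -0.08 on the scale of log2-Fold change (Padj from edgeR 0.644). Hars2 and Hars, which encode histidyl-tRNA synthetases, had values of 0.11 and 0.16. Between the beta and gamma clusters stood Slc25a2, a mitochondrial ornithine carrier, at -0.35 as log2-Fold change (SE 0.34, Padj from edgeR 0.509), Taf7, a subunit of the general transcription factor TFIID, with 0.21 (SE 0.12, edgeR Padj 0.227), and RGD1563159 with -0.03. Slc25a2 and Taf7 overlap in the annotation and the libraries do not keep the strand, so their reads may not be separated.

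Taf7 was at 18.1, 17.8 and 17.6 CPM in control and at 22.4, 20.5 and 19.2 CPM in IDPN-4wk, on the side opposite to its beta neighbours. After the gamma cluster, the log2-Fold change was 0.35 for Diaph1, an actin nucleator of the formin family (edgeR Padj 0.166), 0.09 for Hdac3, a histone deacetylase (edgeR Padj 0.402), and 0.48 for Rell2 (edgeR Padj 0.204). The 4 neighbours that rose were Cd14, a receptor of innate immunity (0.69), Fchsd1 (0.66), Arap3 (0.71) and Gnpda1, an enzyme of amino sugar metabolism (1.00). Arap3 was not called without Control 1, Control 3, IDPN-4wk 1 or IDPN-4wk 3, and Fchsd1 was not called without IDPN-4wk 2. With scaling to library size alone, Zmat2 and RGD1563159 changed sign, to 0.02 and 0.08.

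**Figure D4:**
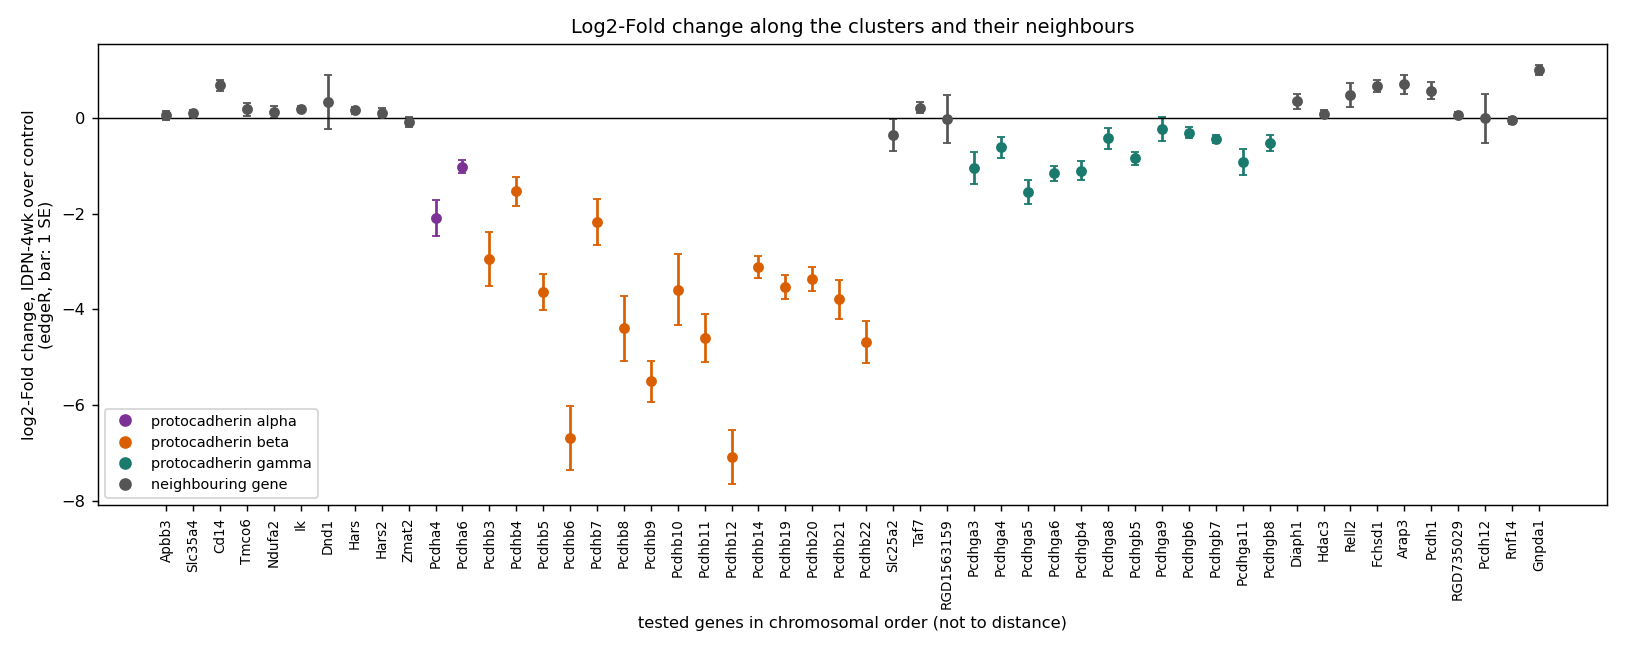
Log2-Fold change of IDPN-4wk over Control (edgeR, bars 1 SE) of the tested alpha, beta and gamma genes and of the 23 tested neighbours, in chromosomal order and not to distance. The neighbours lie between -0.35 and 1.00, the beta genes between -7.09 and -1.53, and the gamma genes on the far side of Taf7 between -1.55 and -0.23.

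The chromatin proteins that act on these clusters were examined from a list of 25 genes, all of which were tested. None was called in either direction by edgeR or by DESeq2. An unadjusted edgeR p under 0.05 was found for 11 of them. The share of all tested genes with such a p was not worked out, so no excess is read from this count. The median log2-Fold change of the list was 0.07 (from -0.38 to 0.58). The insulator gene Ctcf was at 48.9, 50.6 and 49.3 CPM in control and at 53.8, 60.9 and 55.5 CPM in IDPN-4wk, a log2-Fold change of 0.19 (edgeR Padj 0.127). Rad21, a subunit of cohesin, had a value of 0.02 (edgeR Padj 0.885). Smchd1, which takes part in silencing of the clusters in mice, had -0.06 (edgeR Padj 0.794). The DNA methyltransferase gene Dnmt3b had 0.27 (edgeR Padj 0.544) and the histone methyltransferase gene Setdb1 0.12 (edgeR Padj 0.278). Other genes of the list, named after their values had been seen, had an edgeR Padj under 0.05 and missed the fold threshold, with no overlap of the groups. These were the cohesin subunits Stag1 (-0.37, edgeR Padj 0.00657), Stag2 (-0.34, edgeR Padj 0.0201) and Smc1a (-0.27, edgeR Padj 0.0246) on the lower side. On the higher side were the corepressor gene Trim28 (0.40, edgeR Padj 0.00332), the histone methyltransferase gene Ehmt2 (0.36, edgeR Padj 0.0209) and the cohesin release factor gene Wapl (0.37, edgeR Padj 0.0451). The signs of Rad21 and Smchd1 depended on the libraries used or on the scaling. These are RNA levels, and neither protein nor methylation was measured.

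Of 22 genes for binding partners, cleavage enzymes and effectors of the protocadherins, 20 were tested and 1 was lower at both thresholds. This was Nlgn1, the postsynaptic adhesion protein neuroligin 1, with 7.88, 9.85 and 8.71 CPM in control and 1.44, 1.13 and 3.09 CPM in IDPN-4wk, or -2.23 as log2-Fold change (SE 0.34, Padj from edgeR 0.00114). Its groups did not overlap. The sheddase gene Adam10 was at 102, 103 and 96.2 CPM in control and at 81.4, 67.5 and 71.2 CPM in IDPN-4wk, with a log2-Fold change of -0.45 (edgeR Padj 0.00421) that missed the fold threshold, as did Ncstn (-0.26, edgeR Padj 0.0378) and Abi1 (0.31, edgeR Padj 0.0436), named after their values had been seen. Ptk2 and Ptk2b, the adhesion kinases FAK and PYK2 that bind protocadherin tails, had -0.26 (edgeR Padj 0.0772) and -0.58 (edgeR Padj 0.124). The receptor kinase gene Ret was too low to be tested, with means of 0.181 and 0.604 CPM, and Axin1 had no row.

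The non-clustered protocadherins, which lie elsewhere in the genome or outside the clusters, gave a mixed picture. Of 12 genes, 10 were tested, 2 were lower and 0 higher, and the median log2-Fold change was near 0 (from -3.09 to 0.57). Pcdh8 was too low to be tested and Pcdh11x had no row. Pcdh15, a component of the tip link of hair bundles, was at 9.43, 7.27 and 5.80 CPM in control and at 0.575, 0.877 and 1.16 CPM in IDPN-4wk, at -3.09 as log2-Fold change (SE 0.33, Padj from edgeR 0.000136). Pcdh20 was at 570, 587 and 509 CPM in control and at 352, 291 and 375 CPM in IDPN-4wk, at -0.71 as log2-Fold change (SE 0.10, Padj from edgeR 0.000768). Neither overlapped between the groups. Pcdh1 and Pcdh12, which lie after the gamma cluster, were counted among the neighbours too, and their log2-Fold changes were 0.57 (edgeR Padj 0.0430, under the fold threshold) and -0.01. Pcdh18, named after its value had been seen, also missed only the fold threshold, at 0.48 (edgeR Padj 0.0112).

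**Figure D5:**
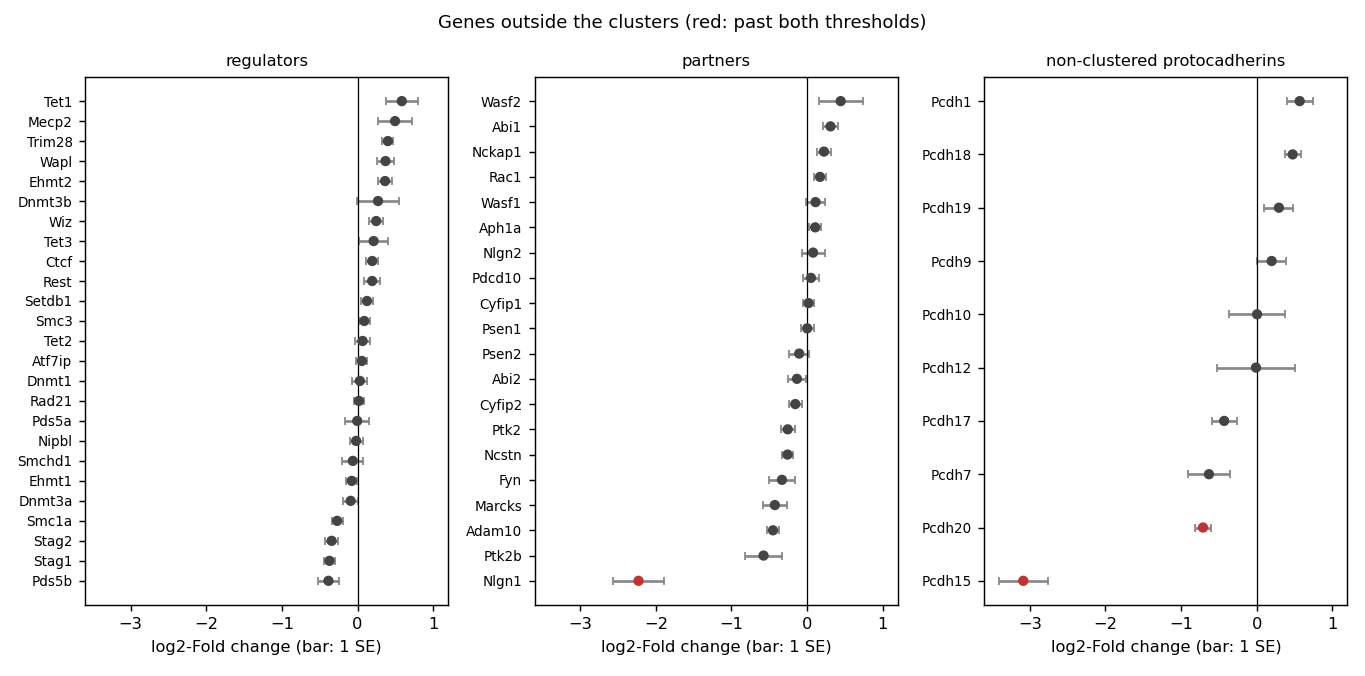
Log2-Fold change of IDPN-4wk over Control (edgeR, bars 1 SE) of the tested chromatin regulators, partners and non-clustered protocadherins; red points are past both thresholds. Of these, 3 are red: Nlgn1 at -2.23, Pcdh20 at -0.71 and Pcdh15 at -3.09.

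The shared 10 bases of the beta promoters were also found in the promoter windows of 54 genes outside the clusters. Of these, 33 were tested, with a median log2-Fold change of 0.06 (from -3.79 to 0.85), 4 called lower and 0 higher. Over all tested genes 6.62% were called lower and 3.09% higher. The 4 genes, named after their values had been seen, were Kcnma1, a calcium-activated potassium channel (-3.79), Hs3st2, a heparan sulfate sulfotransferase (-2.71), Bmp3 (-0.69) and Pde4a (-0.62). A match of letters is a description and not a binding site.

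Markers of several cell types differed between the groups together with the protocadherins, and their part in the result was not tested. The 10 hair cell markers summed to between 2158 and 2310 CPM in control and between 1158 and 1479 CPM in IDPN-4wk, with 5 of 10 lower (Myo7a, Otof, Slc17a8, Tmc1 and Ocm2). The median over these markers was -0.58 as log2-Fold change, and the values were uneven, from -2.56 for Slc17a8 to -0.07 for Gfi1 and 0.02 for Cib2. The supporting cell markers went from between 10807 and 11884 CPM to between 6084 and 7376 CPM, with 4 of 11 lower (Otog, Otogl, Tectb and Gjb6) and a median of -0.33.

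The neuron markers went from between 104 and 110 CPM to between 66.5 and 72.5 CPM. Of 9 tested, Gap43 (-4.43) and Snap25 (-1.44) were lower, and Nefh (2.05) and Prph (2.57) were higher; Stmn2 and Elavl3, which mark neuronal cell bodies, were too low to be tested. The Schwann cell markers were between 13236 and 16532 CPM in control and between 9591 and 13145 CPM in IDPN-4wk. Among them 1 of 9 was lower (Pmp22), and the median was -0.42. Sox10 (0.19) and Erbb3 (0.32) lay above 0 with no overlap of the groups, and neither was called. The median log2-Fold change was 0.00 for stroma, -0.28 for endothelium, 0.30 for macrophages, -0.58 for melanocytes and dark cells, and 0.68 for red blood cells. In these lists Lum (-1.42), Flt1 (-0.69) and Kcnq1 (-1.87) were lower, and Col1a1 (0.74), C1qb (0.71) and the haemoglobin genes Hbb (0.66) and Hba-a2 (0.68) were higher, the last 2 with libraries that overlapped between the groups. Hba-a2 stands on 2 rows, and the other (ENSRNOG00000047321) had 0.69 and was not called (edgeR Padj 0.0532). None of the markers with a row was at 0 in all libraries.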

How the data were processed

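The treatment label set the groups. The authors mapped reads to Rnor6.0 with STAR and estimated gene counts with RSEM on the Rnor6.0.92 annotation; per the labels, the versions were STAR 2.5.3a and RSEM 1.3.0. The deposited values are expected counts, all of them whole. RSEM divides reads that match several genes, so close copies are uncertain, and SMART-seq2 with oligo-dT priming keeps no strand.

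After filterByExpr (at least 10 counts, and 15 in total) and TMM scaling, edgeR 4.0.16 in R 4.3.3 was used to fit a quasi-likelihood model, with Benjamini-Hochberg adjustment over 14352 genes. The script was tested on simulated data. DESeq2 1.42.0, other scalings, no filter and leaving out single libraries were alternatives. SE is the log2-Fold change divided by the root of F. Intervals of pooled counts are exact, use TMM-scaled library totals, and cover counting error only. A count of 0 allows up to 3 counts.

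The members and lists were chosen with earlier results of these data known. Library values are given for all alpha genes, the 5 beta and 5 gamma genes with the highest mean CPM, and the members with the largest and smallest fitted difference. From the other lists, genes past both thresholds, a few regulators and partners, and the nearest neighbours are named; other names were added after values were seen. Promoters and gene order come from RefSeq on GRCr8, a build other than that of the counts. Transcript lengths were not used, so levels are not compared between genes.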

Additional observations from a re-analysis of the deposited data

How the results depend on the processing

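All 29 tested members stayed below 0 with DESeq2, with DESeq2 size factors, with library size alone, without the low-count filter and without any single library. Of 290 values for them, 284 kept their side of the thresholds, 5 fell short and 1 passed (Pcdhga3 without IDPN-4wk replicate 3). The 5 were all of Pcdhga11, with library size alone, with Control 1 or 3 left out and with IDPN-4wk 1 or 2 left out. Without the filter, Pcdhb1 and the row Pcdha4 ENSRNOG00000050378 were called higher. The cause was not tested for any of these changes.

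With library size alone the log2 ratio of the gamma sum was -0.50 in place of -0.61, and 1 regulator (Tet1) was called higher in place of 0. As single libraries were left out, the log2 ratio went from -3.46 to -3.33 for beta, from -0.66 to -0.57 for gamma and from -1.19 to -0.98 for alpha. The number called was 15 beta genes and 2 alpha genes throughout, from 4 to 6 gamma genes, from 3 to 5 neighbours, from 2 to 3 non-clustered protocadherins and from 0 to 1 regulators. The regulator, called without Control replicate 1, was again Tet1. Pcdh1 was called higher with library size alone, without Control 2 and without IDPN-4wk 3.

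Values near 0 changed sign. With library size alone Smchd1 had 0.045, Zmat2 0.024 and RGD1563159 0.078. As single libraries were left out, Rad21 went from -0.013 to 0.049, Smchd1 from -0.14 to 0.085 and RGD1563159 from -0.30 to 0.149. Rad21 was at -0.008 without IDPN-4wk replicate 1, Smchd1 at 0.059 without IDPN-4wk replicate 2, and RGD1563159 at 0.114 and 0.124 without Control replicate 2 and 3.

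The groups were different rats and the labels give no pairing between them, so no paired analysis was made. With 3 libraries a group and counts of 0 to 5 in several treated libraries, the size of the largest differences is uncertain.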
